A study of Homo sapiens with 24 samples.

Results

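The line titled PERK, a HAP1 line edited in the gene for the kinase PERK, was compared with its parental line over every treatment of the series. HAP1 is a near-haploid human cell line obtained from the chronic myelogenous leukaemia line KBM-7. The members were chosen by their titles: 3 arrays titled PERK, 1 in each arm (no drug, lomustine, SA100), out of 24 arrays in all. They were set against the 5 arrays titled PAR, the parental line, which has 2 arrays without drug, 2 with lomustine and 1 with SA100. The 16 other arrays came from 4 further edited HAP1 lines: S51A, named for the serine-to-alanine change in the translation factor eIF2-alpha, and lines edited in the other eIF2-alpha kinases HRI, GCN2 and PKR. Lomustine, a crosslinking chemotherapy drug, was given at 200 µM for 2 h. The arm titled SA100 was read as sodium arsenite at 100 µM for 2 h, from the titles and the treatment text, although the agent field of those arrays names lomustine. The lines were bought from 1 supplier, and the labels do not say whether each is a single clone, at what passage it was used, or where in the gene the PERK line was edited. The labels do not say either whether repetitions A and B of PAR are separate cultures, so the spread between them may be technical. The p-values of the line comparisons measure the spread between repetitions together with differences between lines in their response to the arms.

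PERK, encoded by EIF2AK3, is a kinase in the membrane of the endoplasmic reticulum that is activated when unfolded proteins accumulate there. Like HRI, PKR and GCN2, it phosphorylates eIF2-alpha, which lowers translation of most mRNAs and raises that of a few, among them ATF4, a transcription factor for amino acid and stress genes. A difference between the PERK and PAR lines that was present in every arm is called here a standing difference. With 1 edited line, an effect of the edit and any other difference between these cultures cannot be told apart.

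The array values are log2 signals, and their median over all probe sets and arrays was 2.42. A level below 2.42 was not told from background, and a fold against such a level is a lower bound. Of 22395 genes with a probe set of 1 symbol, 17526 reached that median on at least 2 arrays and were tested. The 3 PERK arrays did not stand apart as a whole: between 0.936% and 1.19% of their genes departed by over 1 log2 unit from the other arrays' median, against 0.776% to 3.30% for the PAR arrays. The highest of the latter was repetition A of PAR with lomustine, and the highest of the series was repetition B of S51A with lomustine, at 13%. After the mean of each arm was subtracted, the untreated and lomustine PERK arrays were more like each other (Pearson r = 0.55 across genes) than like the SA100 PERK array (r = 0.13 and 0.27). The array nearest to the one titled PERK SA100 was repetition B of PAR with lomustine (r = 0.29), ahead of either array of its own line. The array titled PKR SA100 was unlike the other arrays of its line (r = -0.06 and 0.04), and it too was nearest to repetition B of PAR with lomustine (r = 0.27). Whether the title of either array is wrong was not tested, so counts of calls are given below also without the PERK SA100 array, and PKR SA100 is named by its title. These r describe genes that share an array and carry no test. Of the 12 blood markers on the array, 1 lay below 2.42 in both lines: PTPRC, the pan-leukocyte phosphatase CD45 (1.79 and 1.72). The haematopoietic factors GATA1 (4.02 and 3.68) and LYL1 (4.45 and 4.48) lay above it, as did KIT, GATA2, HBG1 and HBE1. CD34, TAL1, SPI1, MPO and ITGAM lay near it, at 2.38 to 2.49 in PERK and 2.31 to 2.57 in PAR. In both lines, 4 of 9 epithelial and 5 of 9 fibroblast markers lay below 2.42. The summed level of the 11 blood markers tested ran from 6.62 to 6.85 on PERK arrays and from 6.57 to 7.02 on PAR arrays (log2).

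The edited gene was read first. EIF2AK3 (probe set 16900053) had log2 levels of 4.43 and 4.84 in PAR without drug, 4.12 and 4.59 with lomustine and 3.68 with SA100. The PERK line had 3.33 without drug, 3.54 with lomustine and 4.31 with SA100. PERK was thus below every PAR array in the untreated and lomustine arms, by 1.31 and 0.81 against their means, and above the PAR array by 0.63 in the SA100 arm. Over the arms the difference was -0.60 (SE 0.316, adjusted p = 1.00 by limma), which did not pass. The S51A line spanned 3.33 to 4.28 at the same probe set, so low values were not particular to the PERK line. Since the position of the edit relative to the probe set is not given in the sources used here, this transcript level neither checks nor contradicts the label. The other kinase genes did not pass either: EIF2AK1 (HRI) differed by 0.05 (SE 0.164), EIF2AK2 (PKR) by 0.18 (SE 0.181) and EIF2AK4 (GCN2) by 0.06 (SE 0.176). EIF2S1, which encodes eIF2-alpha itself, differed by -0.04 (SE 0.175). The signs for EIF2AK1, EIF2AK4 and EIF2S1 turned when single arrays were left out, and that of EIF2S1 also turned when the table was quantile normalized again.

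**Figure D1:**
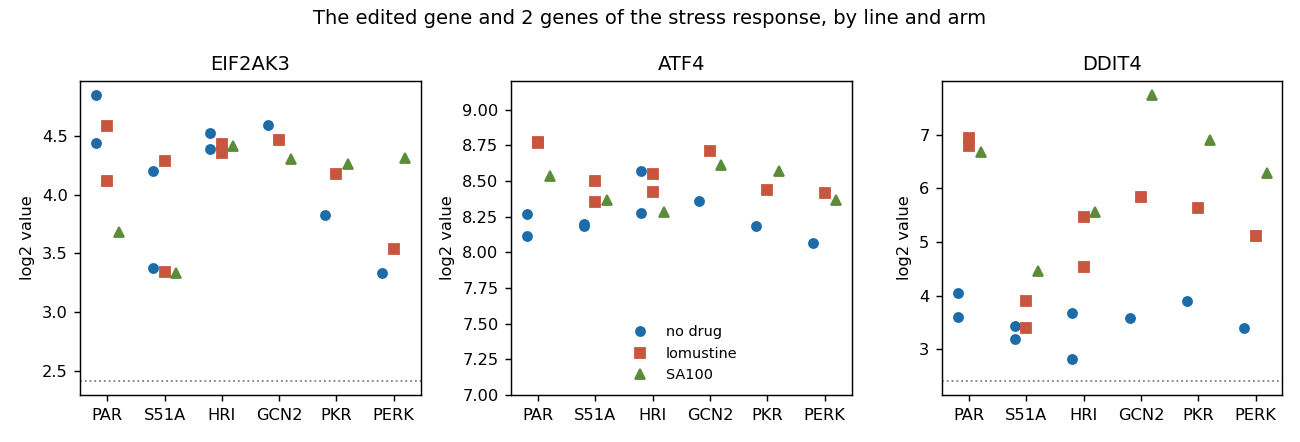
Log2 levels of EIF2AK3, ATF4 and DDIT4 on each of the 24 arrays (vertical axis), by line and by arm (circle, no drug; square, lomustine; triangle, SA100); the dotted line marks the median of all values, 2.42, in panels that reach it. EIF2AK3 in the PERK line runs from 3.33 to 4.31, and DDIT4 rises with lomustine to 5.11 in PERK against 6.79 and 6.93 in PAR.

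Across the 8 arrays of both lines, with the arm as a block, limma called 1 of 17526 genes (0.00571%) at an adjusted p of 0.05. At an unadjusted p below 0.05, 342 genes were higher and 479 lower in PERK. The gene called was EPHA3 (probe set 16942958), a receptor tyrosine kinase for membrane-bound ephrins that takes part in cell adhesion and repulsion. Its levels in PAR were 5.72 and 5.36 without drug, 5.50 and 4.99 with lomustine and 5.19 with SA100. In PERK they were 2.46, 2.64 and 2.96 in the same order of arms. All 3 PERK arrays lay more than 2 log2 units below the lowest PAR array, and the untreated one was close to the background level. The difference was -2.68 (SE 0.205, adjusted p = 0.0103), a level 6.40-fold lower, and it was -3.08 without drug, -2.61 with lomustine and -2.24 with SA100.

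EPHA3 was also low in other edited lines. S51A ran from 1.83 to 2.86, and GCN2 had 2.63 without drug, 2.46 with lomustine and 4.35 with SA100. HRI, from 5.43 to 6.46, overlapped PAR, and PKR lay between with 3.51, 3.50 and 4.39. The lines therefore fell in the order HRI (mean 5.85), PAR (5.35), PKR (3.80), GCN2 (3.15), PERK (2.69) and S51A (2.42), with HRI and PAR overlapping, PKR and GCN2 overlapping, and PERK overlapping both GCN2 and S51A. Against the mean of the 4 other edited lines, EPHA3 in PERK differed by -1.15 (SE 0.276, adjusted p = 0.115), which did not pass. The call against PAR was lost, with adjusted p between 0.0637 and 0.307, on leaving out PAR without drug B, any 1 of the 3 PERK arrays or the PAR SA100 array, while the difference stayed between -2.84 and -2.45.

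The stretch around the transcription start of EPHA3 is shown because it was the gene called, beside that of JAKMIP2, the gene with the third smallest p, which went the other way. Both are 300 bases long, from 250 before to 50 after the start, 5′ to 3′ on the gene's strand, from RefSeq (GRCh38.p14); capitals mark CG dinucleotides, the sites of DNA methylation in human cells. NCAM1, with the second smallest p, had no entry in the table.
EPHA3: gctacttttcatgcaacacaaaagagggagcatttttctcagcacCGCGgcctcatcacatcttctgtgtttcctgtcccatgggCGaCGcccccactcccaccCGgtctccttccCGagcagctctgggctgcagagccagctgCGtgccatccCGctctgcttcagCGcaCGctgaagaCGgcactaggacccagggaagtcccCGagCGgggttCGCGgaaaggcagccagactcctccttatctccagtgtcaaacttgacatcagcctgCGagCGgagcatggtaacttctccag
JAKMIP2: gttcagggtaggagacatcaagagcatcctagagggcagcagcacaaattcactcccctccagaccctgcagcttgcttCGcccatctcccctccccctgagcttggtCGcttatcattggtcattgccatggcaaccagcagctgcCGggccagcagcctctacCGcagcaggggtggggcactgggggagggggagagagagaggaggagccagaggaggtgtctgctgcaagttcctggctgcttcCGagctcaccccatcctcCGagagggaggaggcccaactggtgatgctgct
The EPHA3 window, at chr3:89107371-89107670 on the plus strand, holds 17 CG dinucleotides, and 46.0% of 27305 promoters hold at least as many. The JAKMIP2 window, at chr5:147782679-147782978 on the minus strand, holds 6, which 65.6% of promoters reach. CG reads the same on both strands and was counted without overlap. Methylation was not measured, so these counts describe the windows only.

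A fit of the same comparison over all 24 arrays, with terms for line and arm, takes its error from all lines (16 residual degrees of freedom against 4). It called 16 genes higher (0.0913% of those tested) and 14 lower (0.0799%) in PERK than in PAR. All 30 had the PERK array beyond every PAR array of the same arm in each of the 3 arms. Such separation alone was common: 840 genes (4.79%) lay above and 1117 (6.37%) below PAR in this way. Sizes ran from 0.62 to 1.30 for the higher genes and from 0.70 to 2.73 for the lower ones. The 30 genes described next were chosen after their values were seen. The count rested on single arrays: it was 4 without the untreated PERK array, 7 without the PERK lomustine array, 8 without PAR without drug A, 18 without PAR without drug B and 17 without the PERK SA100 array. It was 75 (28 higher, 47 lower) without PAR lomustine A and S51A lomustine B, and 78 (49 higher, 29 lower) after a second quantile normalization.

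**Figure D2:**
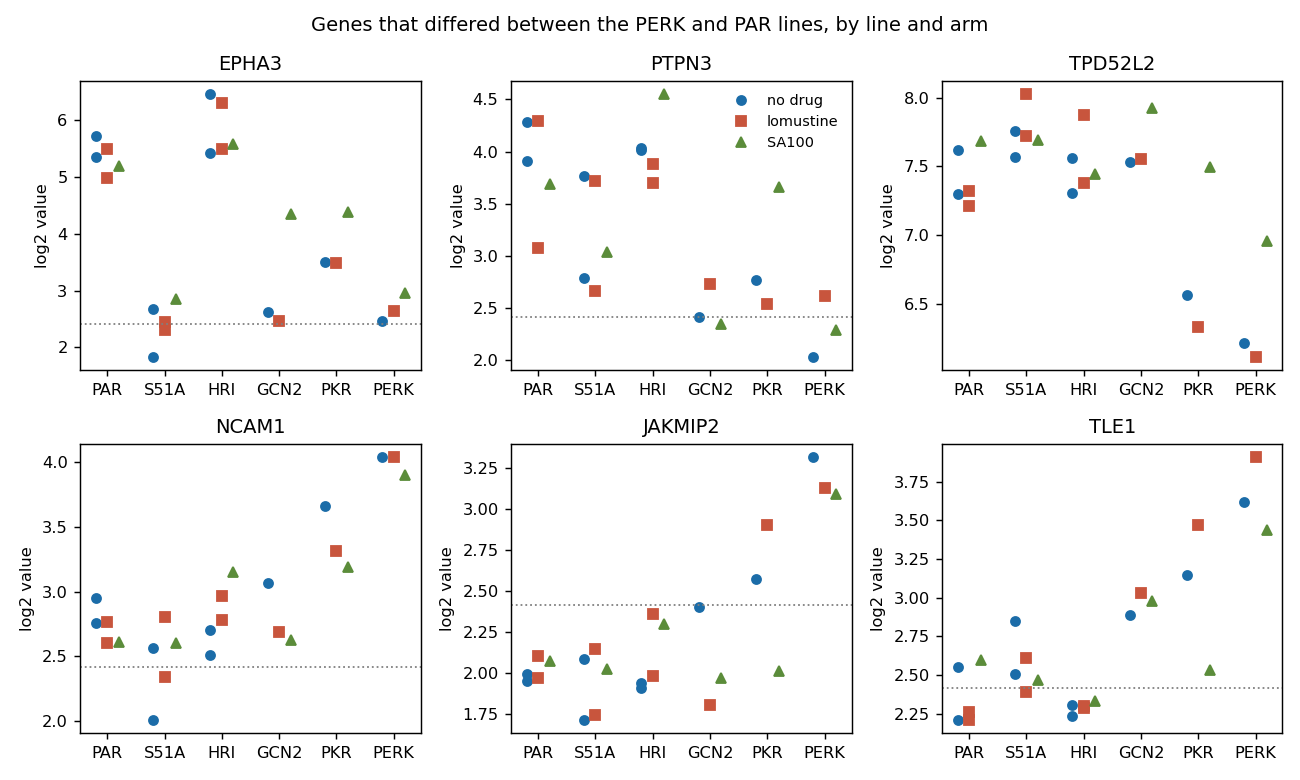
Log2 levels of 6 genes on each of the 24 arrays (vertical axis), by line and by arm (circle, no drug; square, lomustine; triangle, SA100); the dotted line marks the median of all values, 2.42, in panels that reach it. EPHA3, PTPN3 and TPD52L2 are lower and NCAM1, JAKMIP2 and TLE1 higher on all 3 PERK arrays than on any PAR array of the same arm.

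Of the higher genes, 3 encode adhesion molecules of the cell surface. NCAM1 (probe set 16731297), the neural cell adhesion molecule CD56, had levels of 2.76, 2.95, 2.60, 2.77 and 2.61 on the PAR arrays and of 4.04, 4.04 and 3.90 on the PERK arrays. The PERK arrays lay within 0.15 of each other and above all 21 other arrays of the series. NCAM1 was higher by 1.26 (SE 0.176, adjusted p = 0.00204) in the 24-array fit and by 1.28 (SE 0.139, adjusted p = 0.0881) in the 8-array fit, 2.42-fold. Against the 4 other edited lines it was higher by 1.13 (SE 0.152, adjusted p = 0.00237), and the next line was PKR, with 3.67, 3.31 and 3.19. CADM1, an immunoglobulin-like adhesion molecule, was higher by 0.94 (SE 0.19, adjusted p = 0.0445 in the 24-array fit), from a PAR mean of 2.08 that was below background level. LRRC4B, a synaptic adhesion protein with leucine-rich repeats, was higher by 1.08 (SE 0.203), with PERK levels of 4.14 to 4.41 against 2.84 to 3.57 in PAR. Among the 31 adhesion and junction genes tested, NCAM1 and CADM1 were the 2 that rose in that fit and 0 fell, beside 0.0913% and 0.0799% of all genes. The list does not hold EPHA3 or the junction gene JUP, both called lower in the same fit, so it does not show that adhesion genes went 1 way. The median difference of the list was -0.04, beside -0.02 over all genes tested. NCAM1 is also 1 of 8 neural markers on the array, 6 of which were tested. PAX6, a homeobox factor of neural progenitors, also lay above PAR in every arm, at 2.73, 2.56 and 3.32 in PERK against 2.29 to 2.49, and did not pass (0.44, SE 0.168, adjusted p = 1.00, from a PAR mean of 2.39 that was below background level). The differences of the other 4 were 0.14 for SOX2, 0.08 for TUBB3, -0.11 for GAP43 and -0.29 for NES; none passed. STMN2 and ELAVL4 lay below background level in both lines. The summed level of the 6 neural markers tested ran from 7.27 to 7.73 on PERK arrays and from 7.01 to 7.78 on PAR arrays (log2), so the ranges overlapped.

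The next 5 of the 16 higher genes, grouped here by function only to order the text, encode nuclear proteins. TLE1 (probe set 17095150), a co-repressor of the Groucho family, had 2.21, 2.55, 2.21, 2.26 and 2.60 in PAR and 3.62, 3.91 and 3.44 in PERK. No PERK array overlapped PAR, and the difference was 1.30 (SE 0.165, adjusted p = 0.000849), a lower bound in size because the PAR mean of 2.37 was below background level. EYA2, a phosphatase and transcriptional co-activator, was at 2.85 to 3.31 in PAR and at 4.16, 4.35 and 4.26 in PERK, a difference of 1.19 (SE 0.209, adjusted p = 0.0175). The GCN2 line reached the same levels of EYA2 (3.71 to 4.29), as did PKR without drug (4.09) and with lomustine (4.17). EBF1, a factor of B-cell development, rose by 0.96 (SE 0.175, adjusted p = 0.0233). ARID2, a subunit of a SWI/SNF chromatin remodelling complex, rose by 1.20 (SE 0.191, adjusted p = 0.0075), with PERK at 8.30, 8.12 and 7.93 and PAR at 6.33 to 7.50. HMGB3, a DNA-bending chromatin protein, rose by 0.62 (SE 0.12, adjusted p = 0.034).

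The other higher genes encode secreted, membrane or cytoskeletal proteins. SFRP1, a secreted Wnt antagonist, rose by 1.24 (SE 0.24, adjusted p = 0.0335), but HRI reached the same levels (4.36 to 5.33, against 4.69 to 5.18 in PERK). PXDN, a peroxidase that crosslinks collagen IV, rose by 1.18 (SE 0.171, adjusted p = 0.00266). Its PAR levels of 2.26 to 2.39 are background levels, so this size is a lower bound. PXDN stood higher still in GCN2 without drug and with lomustine, but not with SA100, at 3.68, 3.96 and 3.91 against 3.25, 3.26 and 4.03 in PERK. JAKMIP2 (probe set 17001324), a Janus kinase and microtubule interacting protein, was at 1.95, 2.00, 2.10, 1.97 and 2.08 in PAR and at 3.32, 3.13 and 3.10 in PERK. The PAR values are background levels, so its difference of 1.17 (SE 0.178, adjusted p = 0.00451) is a lower bound. GABRQ, a subunit of the GABA-A receptor, rose by 1.27 (SE 0.221, adjusted p = 0.0175), and TAFA5, a secreted chemokine-like protein, by 0.68 (SE 0.14, adjusted p = 0.048). Of the 16 higher genes in all, 5 had a PAR mean below background level, so the sizes of those 5 are lower bounds. EMD (emerin of the inner nuclear membrane), ATP6AP1 (an accessory subunit of the vacuolar proton pump) and MPP1 (a membrane scaffold protein of red cells) rose by 0.86, 0.67 and 0.78. These lie on chromosome X, as do HMGB3 and GABRQ.

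Among the lower genes beside EPHA3 were proteins of signalling and the cell surface. PTPN3 (probe set 17097000), a tyrosine phosphatase with a FERM domain, was at 3.91, 4.28, 3.08, 4.30 and 3.69 in PAR and at 2.03, 2.62 and 2.29 in PERK. The difference was -1.56 (SE 0.302, adjusted p = 0.0335), a lower bound in size because the PERK mean of 2.31 was below background level. GCN2 was as low, from 2.35 to 2.73. JUP, plakoglobin of desmosomes and adherens junctions, had 5.39, 5.19 and 5.23 in PERK and 5.75 to 6.16 in PAR, a difference of -0.70 (SE 0.121, adjusted p = 0.0175). All arrays of the other 4 edited lines lay above these PERK values, from 5.55 to 6.18, and JUP was also called against them (-0.60, SE 0.104, adjusted p = 0.0124). ST6GAL1, a sialyltransferase of the Golgi, fell by 1.03 (SE 0.211, adjusted p = 0.0454). BMP7, a secreted bone morphogenetic protein, fell by 0.92 (SE 0.182, adjusted p = 0.0369). CCDC50, a ubiquitin-binding protein of EGF receptor signalling, fell by 1.20 (SE 0.167, adjusted p = 0.00204), with PERK at 6.18, 6.15 and 6.98 and PAR at 7.34 to 7.86.

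The remaining lower genes, again grouped only to order the text, encode proteins that act inside the cell. PTGR1, a prostaglandin and alkenal reductase, was at 5.99 to 6.34 in PAR and at 4.61, 4.44 and 5.76 in PERK, a difference of -1.31 (SE 0.249, adjusted p = 0.0286). PSMA7, an alpha subunit of the proteasome core, fell by 1.03 (SE 0.182), and GID8, a subunit of the CTLH ubiquitin ligase, by 1.07 (SE 0.201). DNAJC5, the cysteine-string co-chaperone, fell by 0.85 (SE 0.158), PRPF6, a splicing factor of the U5 particle, by 0.82 (SE 0.167), and TPD52L2, a tumour protein D52 family member, by 1.05 (SE 0.193). BABAM1, of the BRCA1-A repair complex, fell by 0.81 (SE 0.143), and WDR18, of a ribosome biogenesis complex, by 0.78 (SE 0.157). Their adjusted p values ran from 0.0175 to 0.0454.

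**Figure D3:**
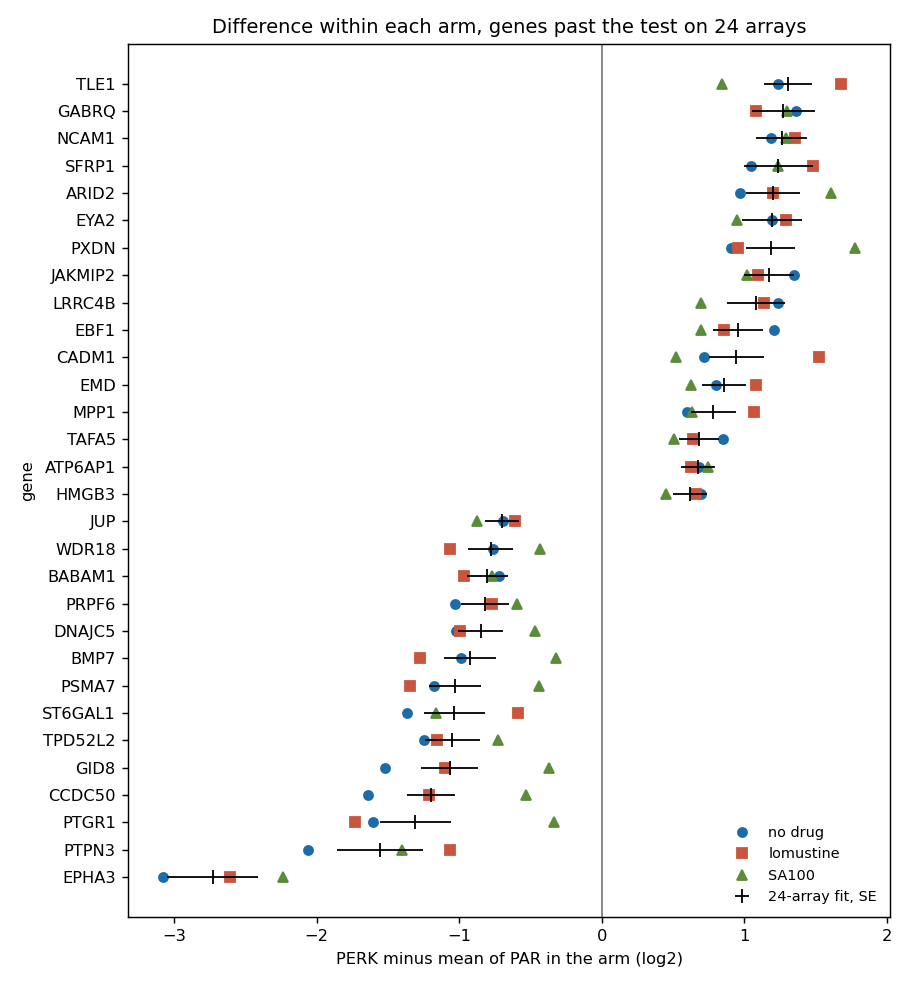
Difference between the PERK array and the mean of the PAR arrays in each arm (log2, horizontal axis) for the 30 genes past the test on 24 arrays (vertical axis); symbols stand for arms and the black tick with bar for the fitted difference and its SE. All points of a gene lie on 1 side of 0, and the SA100 points of the lower genes are mostly the nearest to 0.

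The standing differences were smaller in the SA100 arm for most of the lower genes. Their median difference was -1.21 without drug, -1.08 with lomustine and -0.56 with SA100, and SA100 gave the smallest of the 3 values in 10 of 14. For the higher genes the medians were 1.01, 1.09 and 0.79, and SA100 gave the smallest in 9 of 16. PTGR1 differed by -1.61, -1.73 and -0.34 in the order of arms, whereas PXDN differed by 0.90, 0.96 and 1.78. Each arm has 1 PERK array, so a dependence on treatment and a departure of that array cannot be told apart. The test of the dependence itself, limma with a mean for each of the 18 groups, which leaves 6 residual degrees of freedom, called 0 genes for lomustine against no drug and 0 for SA100 against no drug. The smallest adjusted p was 1.00 and 0.995, and at an unadjusted p below 0.05 there were 65 and 277 genes with a more positive and 60 and 108 with a more negative difference. For EIF2AK3, the PERK minus PAR difference was more positive by 1.94 (SE 0.669, adjusted p = 0.995) with SA100 than without drug.

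Whether a difference from PAR was also a difference from the other edited lines was tested by setting PERK against the mean of S51A, HRI, GCN2 and PKR. Here 18 genes (0.103%) were higher and 21 (0.12%) lower. Of the 30 genes above, 19 were also called, in the same direction (63.3% of the 30 and 48.7% of the 39); both comparisons use the same 3 PERK arrays, so this overlap is not independent. Of the 30, PERK lay beyond every array of the 4 other lines in all arms for 13 of the 16 higher and 9 of the 14 lower genes. Over all genes tested, 113 were above and 123 below in that sense. SERPINB9 (probe set 17015106), an inhibitor of granzyme B, had the largest difference, -2.81 (SE 0.416, adjusted p = 0.00472). It was at 3.27 and 2.90 in PERK without drug and with lomustine, but at 5.60 with SA100, beside 6.17 to 8.54 in S51A, 6.68 to 8.09 in HRI and 6.53 to 6.81 in GCN2. PAR, at 4.89 to 6.56, overlapped the low ends of S51A and GCN2, and PKR had 3.99, 3.45 and, on the array titled PKR SA100, 6.73.

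Part of this list belonged to S51A rather than to PERK. In 9 of the 21 lower calls the S51A mean exceeded the PERK mean by more than 2 log2 units. ZNF729, a zinc finger gene, was at 1.50 to 1.92 in PERK, at 1.49 to 1.80 in PAR and at 6.64 to 7.78 in S51A. ITM2A, a membrane protein gene called higher (1.06, SE 0.202, adjusted p = 0.0243), was at 7.83 to 8.42 in PERK and at 2.80 to 3.35 in S51A. Without the S51A line, 3 genes were higher and 3 lower; without HRI 5 and 12, and without PKR 41 and 52. The count was 1 without the untreated PERK array, 6 without the PERK lomustine array, 19 without the PERK SA100 array, 116 without PAR lomustine A and S51A lomustine B, and 73 after quantile normalization again.

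Along the chromosomes, neighbouring genes differed together at the ends of chromosomes 20 and X. Genes with a mean level of at least 4 were put in order with the RefSeq gene table, which gives neighbours only, and a running median of 11 genes was taken of the 8-array difference. Just 2 stretches of 10 or more genes reached 0.4 in size among 7753 ordered genes, and both ended at the last ordered gene of their chromosome. The stretches were found from these values, so what follows describes them, with no test. On chromosome 20, 29 genes from OSBPL2 to PCMTD2 had a median difference of -0.68, a level 0.624 of that in PAR. Of these, 27 were lower, 23 of them without overlap in any arm, beside 6.37% of all genes tested. The array medians of this stretch against PAR were -0.64 without drug, -0.62 with lomustine and -0.47 with SA100. Among its genes, GID8, TPD52L2, DNAJC5 and PRPF6 were past the 24-array test, which called 0.0799% of all genes tested lower. YTHDF1, a reader of methylated mRNA, was at 5.85, 5.79 and 6.43 against 6.31 to 7.01 in PAR, and passed only against the 4 other lines (-0.93, SE 0.144, adjusted p = 0.00484).

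On chromosome X, 32 genes from AFF2 to VAMP7 had a median difference of 0.62, 1.54-fold. Of these, 31 were higher, 28 of them without overlap in any arm, beside 4.79% of all genes tested. The array medians were 0.55, 0.77 and 0.58. HMGB3, EMD, ATP6AP1 and MPP1 were past the 24-array test, which called 0.0913% of all genes tested higher. IRAK1, a kinase of Toll-like and interleukin-1 receptor signalling, had the largest difference there, 1.26 (SE 0.26, adjusted p = 0.42), with PERK at 7.21, 6.97 and 6.56 and PAR at 4.91 to 6.06. NSDHL, a cholesterol synthesis enzyme, was at 7.94, 7.69 and 7.72 against 6.08 to 7.24. Of the 30 genes of the 24-array fit, 8 were among the ordered genes of these stretches and 22 were not. GABRQ, also past that test, lies between AFF2 and VAMP7 in gene order but was left out of the ordered genes because its mean level was below 4. PSMA7, past that test too (-1.04 on 8 arrays), lies on chromosome 20 at place 206 in gene order. That is just before the stretch there, which begins at place 209, so PSMA7 was not counted in it. A smaller shift at the other end of chromosome X stayed outside the rule. From PLCXD1, at place 1 in gene order, to TAB3, at place 45, the running median was positive, between 0.07 and 0.45. At TMEM47, the next gene, it was -0.15. The untreated PERK array lay on both sides of PAR in that block, as with -0.60 for MOSPD2 and 0.68 for GYG2. All-gene medians of the same PERK arrays against PAR were between -0.07 and 0.02.

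The shifts of the stretches from OSBPL2 to PCMTD2 and from AFF2 to VAMP7 were not limited to the PERK line. Against the mean of S51A, HRI and GCN2 in the same arm, which leaves PAR out, the median over the chromosome 20 stretch was -0.65, -0.67 and -0.57 for PERK without drug, with lomustine and with SA100. For PKR it was -0.37 and -0.30 without drug and with lomustine, and 0.05 on the array titled PKR SA100. The HRI arrays were split: repetition A without drug (-0.30) and repetition B with lomustine (-0.35) lay between those PKR values of -0.37 and -0.30, while the other 3 lay between -0.10 and -0.06, although HRI is part of that mean. Over the chromosome X stretch the medians against the same mean were 0.56, 0.61 and 0.44 for PERK and 0.34, 0.42 and 0.10 for PKR. Against PAR, the X stretch was also higher in GCN2 (medians of 0.26, 0.47 and 0.36) and on all 5 HRI arrays (0.18 to 0.46). PERK had the highest median in each arm. S51A, part of the mean above, lay mostly on the other side of PAR from PERK. Its medians against PAR on chromosome 20 were 0.07 and 0.39 without drug, 0.56 and -0.02 with lomustine and 0.22 with SA100. On chromosome X they were -0.16 and -0.29, 0.03 and -0.60, and -0.10 in the same order. All of these values against PAR share the PAR arrays. The untreated PERK array was nearly as like PKR with lomustine (r = 0.51) and PKR without drug (r = 0.49) as it was like its own lomustine array (r = 0.55), over genes with a mean of at least 4 and after the arm means were subtracted.

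**Figure D4:**
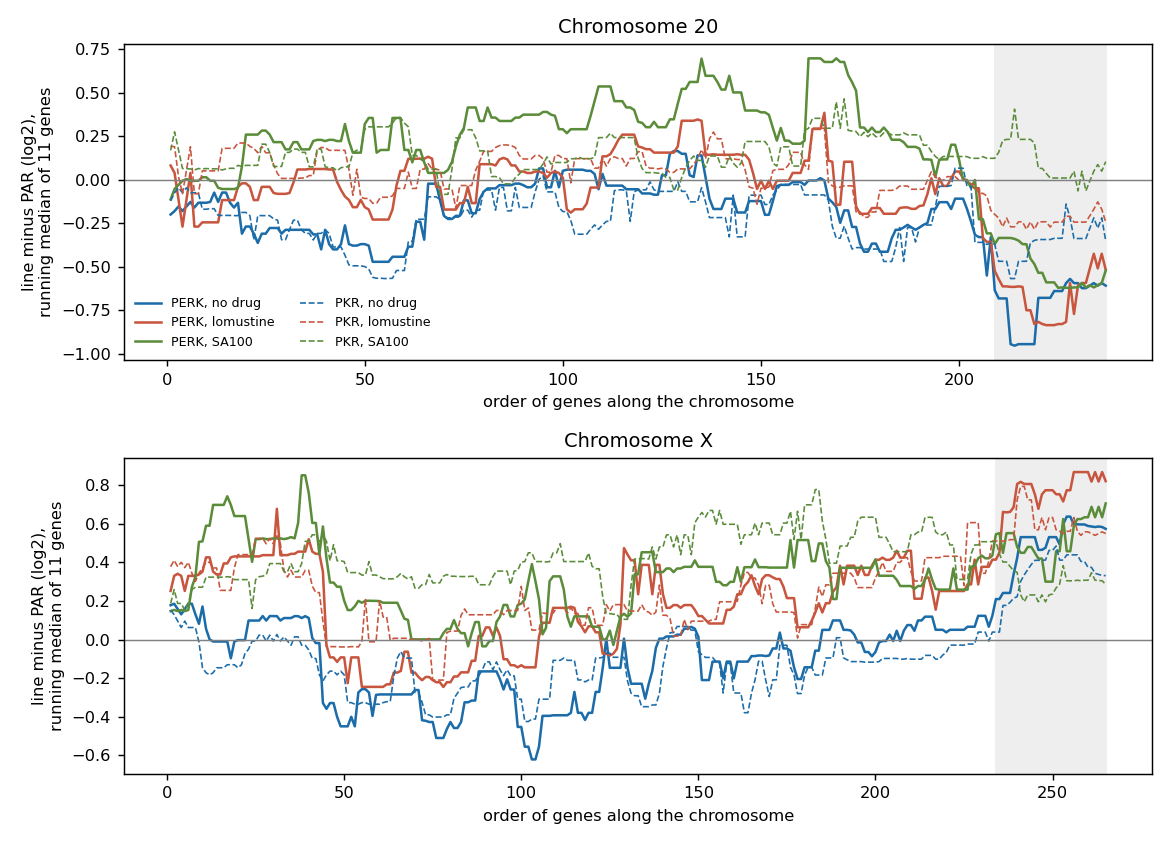
Running median over 11 neighbouring genes of the difference of an array from the mean of the PAR arrays in its arm (log2, vertical axis), in gene order along chromosomes 20 and X (horizontal axis); solid lines are PERK arrays and dashed lines PKR arrays, coloured by arm, and the shaded bands mark the 2 stretches. Within the bands the PERK medians are -0.64, -0.62 and -0.47 on chromosome 20 and 0.55, 0.77 and 0.58 on chromosome X.

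Around EIF2AK3 the neighbours were taken from all tested genes, without the filter of a mean level of at least 4 used for the stretches. A shift like that of the stretches could therefore not be judged there on the same footing. The 10 tested genes on either side had a median difference of 0.00, with 0 lying above and 1 below PAR without overlap in any arm, beside 4.79% and 6.37% of all genes. No run of 3 or more neighbouring genes was called in 1 direction by the 8-array fit, by the 24-array fit or against the 4 other lines. The 8-array fit called 1 gene, so it could not give such a run. The 24-array fit called 30 genes and the comparison with the 4 other lines 39, and neither gave a run even within the stretches. The absence of runs therefore does not bear on a shift around EIF2AK3.

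The integrated stress response list holds targets of ATF4 and CHOP, through which PERK acts on transcription. None of its 32 tested members passed in limma against PAR, where 4 had an unadjusted p below 0.05, or against the 4 other lines, where 2 had. Its median difference from PAR was -0.20, beside -0.02 over all genes tested, and 1 member lay above and 9 below PAR without overlap in any arm, beside 4.79% and 6.37% of all genes. Against the 4 other edited lines its median was 0.00. DDIT4 (probe set 16705961), which restrains mTORC1 signalling, was at 4.05, 3.61, 6.79, 6.93 and 6.68 in PAR and at 3.39, 5.11 and 6.28 in PERK. The gap was widest with lomustine, and the difference over the arms was -0.91 (SE 0.267, adjusted p = 0.871). With lomustine PKR stood at 5.63, GCN2 at 5.83, HRI at 4.53 and 5.47, and S51A at 3.39 and 3.90, so PAR was the highest line there. Other members below PAR in every arm were CEBPB (-0.43, SE 0.18), PSAT1 of serine synthesis (-0.36, SE 0.146), STC2, a secreted glycoprotein (-0.46, SE 0.187), and ATF4 itself (-0.22, SE 0.136). So were JDP2 (-0.31), PHGDH (-0.23), SESN2 (-0.20) and TRIB3 (-0.19). None of these passed. ATF4 levels were 8.06, 8.42 and 8.37 in PERK and 8.11, 8.27, 8.78, 8.77 and 8.53 in PAR.

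By array, the median of the stress response list in PERK was -0.15 and -0.27 against the untreated PAR arrays, -0.24 and -0.39 against the lomustine ones and 0.03 against the SA100 one. All genes tested had medians of -0.06, -0.08, 0.06, -0.09 and 0.02 in the same order. The 29 immediate-early genes, induced within minutes of a signal, had a median difference of -0.21 with 0 above and 4 below without overlap (4.79% and 6.37% of all genes), and their array medians were -0.13, -0.13, -0.24, -0.58 and 0.05. EGR1, the transcription factor in the title of the series, was at 3.73, 7.17 and 9.44 in PERK and at 4.25, 4.75, 7.87, 8.69 and 9.18 in PAR (difference -0.61, SE 0.287, adjusted p = 1.00). Both lines thus had higher EGR1 in the treated arms. KLF4, another early transcription factor, had the smallest p of this list (-0.67, SE 0.214, adjusted p = 0.947).

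**Figure D5:**
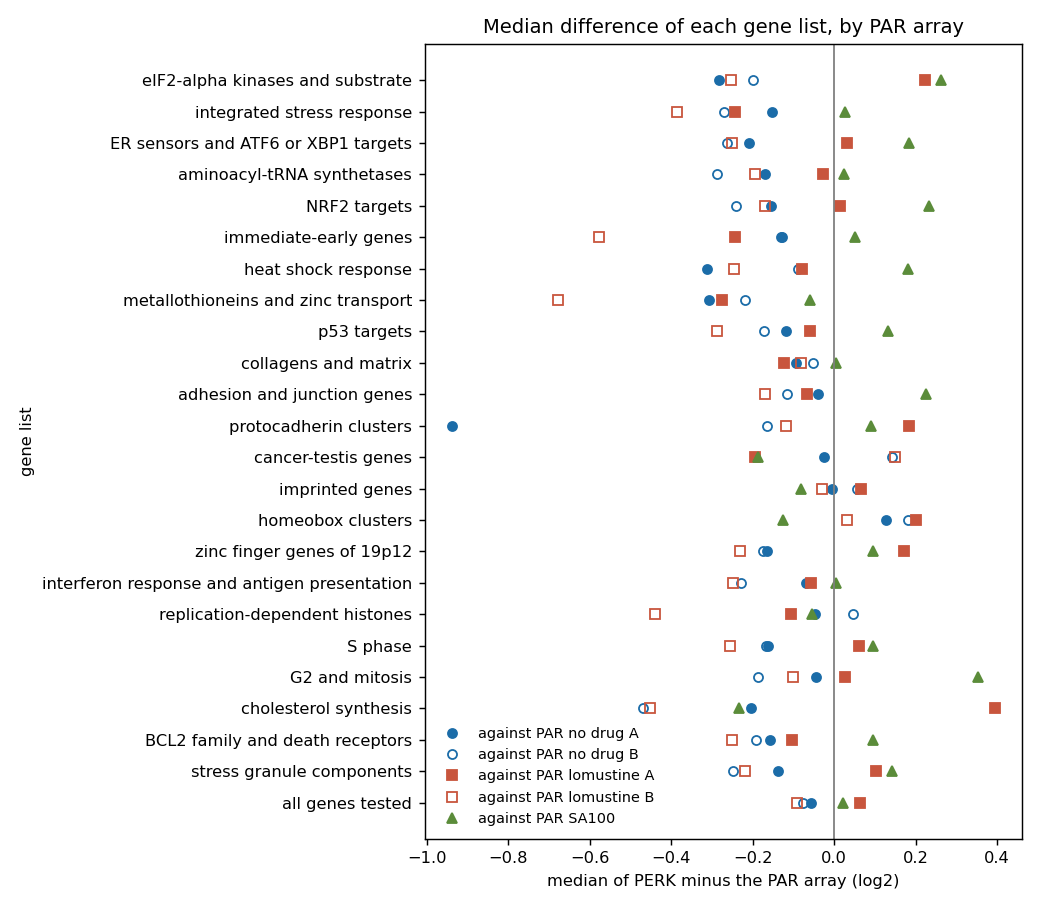
Median over each gene list (vertical axis) of the difference between the PERK array and each PAR array of the same arm (log2, horizontal axis); colour and shape give the arm and open symbols repetition B, and the bottom line is the median of all genes tested. The stress response list runs from -0.39 to 0.03, and the widest gap among the PAR arrays is for the protocadherins, from -0.94 to 0.18.

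Other lists held few or no calls. Their members above or below PAR without overlap in any arm are to be read beside 4.79% and 6.37% of all genes. The 8 metallothioneins and zinc transporters had a median difference of -0.39, with 0 above and 1 below; MT1F, a metal-binding protein gene, was at 4.86 in PERK without drug against 6.62 and 6.17 in PAR, at 4.85 with lomustine, also below both PAR arrays, and at 8.14 against 8.01 with SA100 (difference -0.96, SE 0.281, adjusted p = 0.862). Of 32 genes of endoplasmic reticulum sensors and of ATF6 or XBP1 targets, the parallel branches of the unfolded protein response, 3 lay above and 2 below, with a median of -0.03. HERPUD1, a gene of protein degradation at the endoplasmic reticulum, was at 4.96, 6.15 and 6.65 in PERK and at 5.91, 6.10, 6.88, 6.91 and 6.68 in PAR (-0.66, SE 0.192, adjusted p = 0.862). Aminoacyl-tRNA synthetase genes, many of which ATF4 drives, had 0 above and 4 below of 19 and a median of -0.10. Of the kinases, subunits and phosphatases around eIF2-alpha, 1 lay above and 1 below of 15, and the lower one, EIF2B2 of the exchange factor eIF2B, differed by -0.30 (SE 0.148, adjusted p = 1.00). The 22 stress granule components had a median of 0.00 with 1 above and 2 below. Of 13 protocadherin genes, neuronal adhesion genes in clusters, 1 lay above and 2 below. PCDHB3 passed against the 4 other lines (-1.33, SE 0.262, adjusted p = 0.0308), where S51A stood at 5.74 to 7.18 against 2.25 to 2.62 in PERK. The 2 below PAR were PCDHB3 (-1.16, SE 0.348) and PCDHB5 (-0.96, SE 0.223), and neither passed against PAR. HOXD13, a homeobox gene of limb patterning, was at 4.41, 3.92 and 5.53 in PERK and at 4.32 to 7.53 in PAR, and did not pass (-1.60, SE 0.425, adjusted p = 0.733).

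RNA came from whole cultures, so a lower level in every cell and a loss in a fraction of the cells cannot be told apart for any of these genes. Probe sets with no gene symbol or with several were tested apart. Of these, 21013 reached the median of their own values on at least 2 arrays. They held 0 calls between PERK and PAR by limma on the 8 arrays, and 852 at an unadjusted p below 0.05.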

How the data were processed

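Transcripts were measured on 24 Affymetrix arrays of total RNA from HAP1 lines. The deposited series table gives 53617 probe sets as log2 values; per the submitters' processing notes these were made with RMA (background correction, quantile normalization and median polish) and the R package affy. Versions, filters and the genome build are not given in the sources used here, so probe set coordinates are not printed. Probe sets were named from the array's annotation: 23871 had 1 symbol, 1842 several and 27904 none, and 88 symbols were updated through their gene identifiers. For the 632 genes with several probe sets, the one with the highest mean was used. Promoter windows and gene order came from RefSeq tables on GRCh38.p14.

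Tests used R 4.3.3 and limma 3.58.1 (lmFit and eBayes, two-sided, Benjamini-Hochberg over all genes tested, threshold 0.05), checked on simulated data. PERK was set against PAR with the arm as a block on 8 arrays; all 24 arrays with terms for line and arm gave PERK against the other edited lines. Arrays give no read depth, and their number limits the precision. The rule for named genes takes the eIF2-alpha kinases, EIF2S1, ATF4 and EGR1, up to 15 genes per direction past the test without overlap in any arm, up to 4 per list past the test or else the 1 with the smallest p, and up to 5 per interaction. The comparison, members and the 27 lists were chosen with earlier results of these data known. Alternatives were no filter or a stricter one (14930 genes), the mean of all probe sets, quantile normalization again, centring on medians, a trended robust prior, no arm term, contrasts within arms, all 24 arrays, and leaving out each array or line.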

Additional observations from a re-analysis of the deposited data

How the results depend on the processing

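With 1 PERK array per arm, the 8-array comparison has 4 residual degrees of freedom. Its 1 call became 3 with a trended robust prior, 5 without the arm term, 0 as the mean of the contrasts within arms and 0 to 1 on leaving out each array. With all 24 arrays it was 30, 36 without the array titled PKR SA100, 75 without PAR lomustine A and S51A lomustine B, 78 after quantile normalization again, 28 after centring on medians, and 4 to 34 on leaving out each PERK or PAR array. The alternatives that drop arrays from the 24, and their scalings, were chosen after seeing the data. EPHA3 passed in 23 settings and failed in 6, with differences from -2.91 to -2.45. Against the 4 other edited lines, the 39 calls became 73 after quantile normalization again, 6 without S51A, 17 without HRI, 93 without PKR, 116 without PAR lomustine A and S51A lomustine B, and 1 to 19 on leaving out each PERK array. Signs turned for 8 genes. On leaving out 1 array of the 8 or of the 24, the difference from PAR ran from -0.064 to 0.161 for EIF2AK1, from -0.038 to 0.143 for EIF2AK4 and from -0.192 to 0.096 for EIF2S1. Without PAR lomustine A and S51A lomustine B, EIF2AK1 was at -0.027 and EIF2AK4 at -0.046. After quantile normalization again, EIF2S1 was at 0.027 on 8 arrays and 0.033 on 24. Without S51A, ITM2A became -0.27, NLRP2 0.11, ZNF257 0.13, ZNF556 0.017 and ZNF729 0.085 against the remaining lines. The interactions gave 0 calls in each setting run. All-gene medians moved by less than 0.1 with scaling. No paired analysis was possible because the PERK arrays carry no repetition letter.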
